A study of Mus musculus with 10 samples.

Results

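The scaffold genes of the postsynaptic density and the calcium/calmodulin-dependent protein kinase (CaM kinase) genes were followed here in the mouse brain between 1 and 8 weeks of age. The 10 genes were the scaffolds Dlg4, Dlg3, Homer1 and Shank3, the CaM kinase II genes Camk2a, Camk2b, Camk2d and Camk2g, and Camk4 with its activating kinase Camkk2. They were found by the gene symbol that the array's annotation gives each probe set, a group of short oligonucleotides read as 1 value. The symbols matched 20 of 22626 probe sets, and 17 of the 20 were bright enough to be tested, among 13576 tested in all. Every gene kept at least 1 tested probe set, and the brightest one stood for the gene, as for each of the 8148 genes tested. Of the 12393 genes with a probe set of their own, the others were too dim.

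The samples were total RNA from the brain of mice of the inbred strain C57BL/6, each read on 1 Affymetrix MOE430A array. At 8 weeks there were 4 arrays, 2 labelled male and 2 labelled female, and at 1 week there were 6 arrays, 3 labelled male and 3 labelled female. The labels name no genotype, allele or treatment, and they do not say how the brains were dissected. They number the brains without stating that each came from a separate animal, so the p-values measure the spread between these samples, which may in part be technical. Values are intensities after quantile normalization, which gives every array the same distribution of brightness. Changes are differences of log2 intensity, 8 weeks minus 1 week, fitted with limma and called at an adjusted p under 0.05.

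The postsynaptic density is the protein mesh under the membrane of excitatory synapses. Dlg4 encodes PSD95 and Dlg3 encodes SAP102, membrane-associated scaffolds that hold glutamate receptors, and Shank and Homer proteins link those complexes to deeper layers, to metabotropic receptors and to the actin cytoskeleton. CaM kinase II, a holoenzyme of many subunits drawn from 4 genes, is among the most abundant proteins of the forebrain postsynaptic density and is required for long-term potentiation. CaM kinase kinase 2 phosphorylates CaM kinase 4 and the energy sensor AMP-activated kinase, and active CaM kinase 4 phosphorylates the transcription factor CREB in the nucleus.

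In GRCm38.p6 the scaffold genes lie at chr11:70017203-70045535 (Dlg4), chrX:100767411-100818410 (Dlg3), chr13:93303757-93405129 (Homer1) and chr15:89493013-89560261 (Shank3). Of the kinases, Camk2b lies at chr11:5969629-6066357, Camk2d at chr3:126595487-126846326, Camk2g at chr14:20734873-20794157 and Camkk2 at chr5:122718380-122779522. Because CREB stands downstream of Camk4, the windows from 250 bases before to 50 bases after the annotated starts, taken from RefSeq on GRCm38.p6, were searched for TGACG, the core of the cAMP response element that CREB binds, and for its reverse complement CGTCA. The search covered 11 windows of 7 of the genes. Camk2a and Camk4 were left out of it, and Camk2g had no window. The motif was found in 3 windows, 1 each for Homer1, Dlg4 and Dlg3, against 20.8% of the 32851 windows of the same length in the RefSeq table. Homer1, whose short form is known as an activity-induced transcript, held 3 matches in 1 window, a number reached or passed by 1.03% of windows, and all 3 lay before the annotated start. That window was singled out after the search as the one with most matches among the 11. The 1.03% is therefore not the probability of finding such a window in the search. No window of the 7 genes held the full palindrome TGACGTCA, which 1.79% of all windows contain. A match describes the letters and is no measured binding site. The 3 windows are shown because they contain the motif, 5′ to 3′ on the + strand, with it in capitals, in the order Homer1 at chr13:93303507-93303806, Dlg4 at chr11:70023732-70024031 and Dlg3 at chrX:100774245-100774544.
Homer1: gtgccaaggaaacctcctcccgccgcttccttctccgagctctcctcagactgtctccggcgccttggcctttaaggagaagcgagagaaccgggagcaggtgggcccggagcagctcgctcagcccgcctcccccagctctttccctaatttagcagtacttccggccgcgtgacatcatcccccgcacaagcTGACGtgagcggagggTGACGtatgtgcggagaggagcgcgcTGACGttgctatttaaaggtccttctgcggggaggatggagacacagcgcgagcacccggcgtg
Dlg4: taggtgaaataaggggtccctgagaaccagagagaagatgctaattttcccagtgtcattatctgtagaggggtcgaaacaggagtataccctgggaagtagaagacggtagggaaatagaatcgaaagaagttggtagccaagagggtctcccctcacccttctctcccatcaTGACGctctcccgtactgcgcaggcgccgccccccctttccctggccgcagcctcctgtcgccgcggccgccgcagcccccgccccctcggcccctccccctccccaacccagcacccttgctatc
Dlg3: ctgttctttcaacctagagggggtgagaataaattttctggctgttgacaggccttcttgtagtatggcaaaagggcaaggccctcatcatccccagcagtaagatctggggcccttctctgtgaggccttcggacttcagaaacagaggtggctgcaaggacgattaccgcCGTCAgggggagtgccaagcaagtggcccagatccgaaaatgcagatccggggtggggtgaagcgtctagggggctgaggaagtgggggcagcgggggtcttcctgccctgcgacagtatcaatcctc

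Across the 10 genes, 7 rose with age and none fell, by limma with Benjamini-Hochberg adjustment over all probe sets tested. Over all 8148 genes, 21.9% were called higher at 8 weeks and 24% lower. Camk2a, Dlg4, Camkk2, Camk2g, Camk4, Homer1 and Shank3 rose, in falling order of size, and Camk2d, Camk2b and Dlg3 did not pass the test. When 1 array was left out, 5 to 7 were called higher, Shank3 in 3 and Camk4 in 4 of the 10 fits. The median change was 0.38 for the 10 genes and -0.02 for all genes. By probe set, 10 of the 17 tested were called higher and 0 lower, where 22% of all 13576 were called higher and 24% lower. In 5 genes every 8-week array was above every 1-week array (Camk2a, Dlg4, Camk2g, Camkk2 and Homer1), and in none was every 8-week array below, where 17.5% of all genes were separated upwards and 18.4% downwards. By probe set, 6 of the 17 were separated upwards, against 17.1% of all, and 0 downwards, against 18.3%. The brain holds many cell types, and in bulk RNA fewer cells of a type and less RNA per cell cannot be told apart.

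Arrays stood apart in ways that touch these genes. Before normalization the trimmed mean intensity ran from 255 to 318 at 8 weeks and from 138 to 236 at 1 week. Without normalization the median of all probe sets tested shifted by 0.47 with age, and scaled to the 16 spike-in probe sets it shifted by 0.20, so all changes below are relative to the normalized distribution. The transcripts Xist and Eif2s3y opposed the sex label on 4 of the 6 arrays at 1 week, 1 more carried both, and none opposed it at 8 weeks. The ages are formed without these labels, whereas the values by label below depend on them. The fit takes its spread within groups of age and label, so the p-values for age also depend on the labels. A fit of age alone called 6309 probe sets, against 6246.

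**Figure D1:**
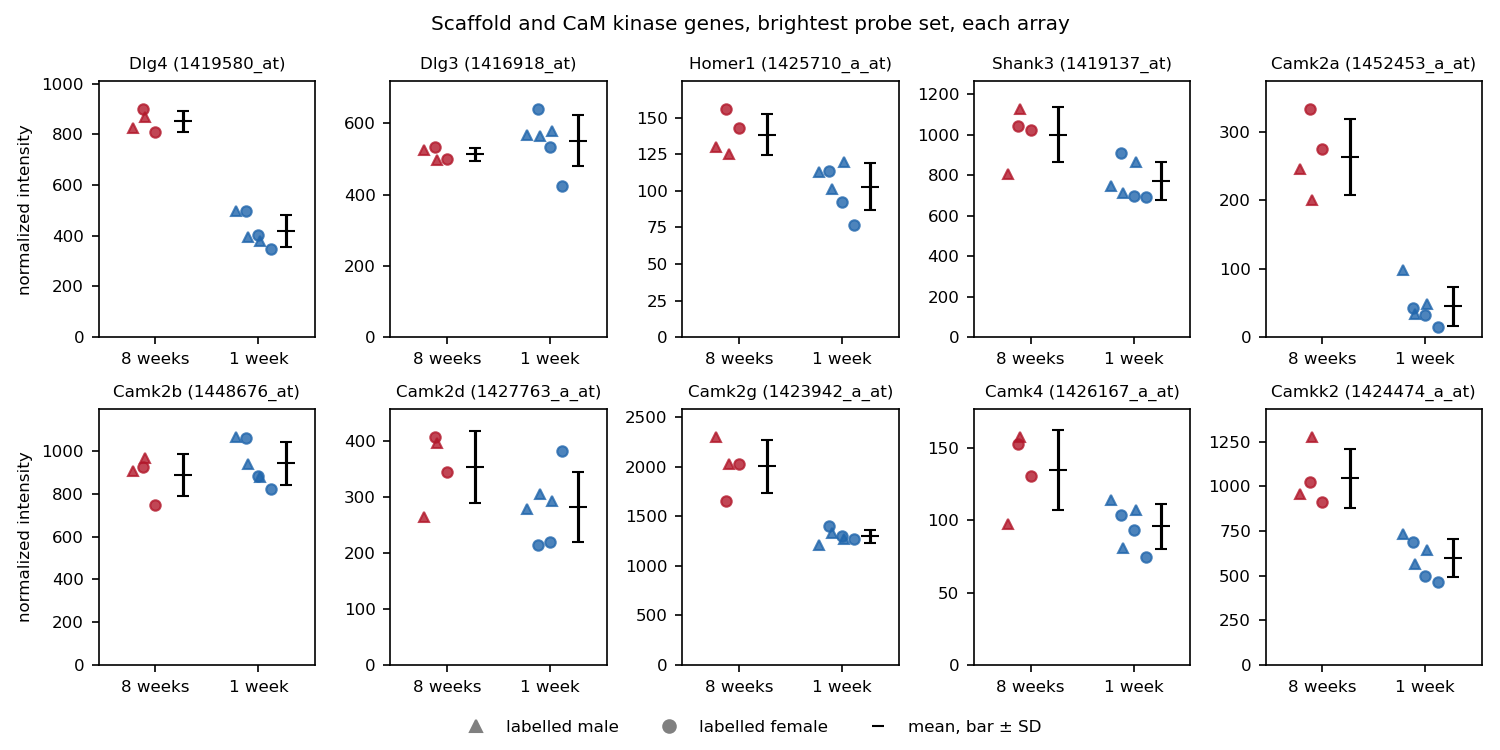
Normalized intensity (linear axis from 0, different in each panel) of the brightest probe set of each gene on the 4 arrays at 8 weeks and the 6 arrays at 1 week, with the mean and SD of each age beside the points. Camk2a, Dlg4, Camk2g, Camkk2 and Homer1 show no overlap between ages, while Dlg3 and Camk2b overlap throughout.

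Among the scaffolds, Dlg4 changed most. Its brightest probe set, 1419580_at, read 825 and 870.2 in the 8-week arrays labelled male and 900.2 and 809 in those labelled female. At 1 week it read 496, 396 and 379 in arrays labelled male and 497, 404 and 346 in arrays labelled female. The ages were far apart, the lowest 8-week array being well above the highest 1-week array. The means were 851 ± 41.7 at 8 weeks and 419.7 ± 62.8 at 1 week (SD, n = 4 and 6), a log2 change of 0.99 ± 0.11 (SE; limma adjusted p = 6.95e-05). This was the 500th-largest change in size of the 8148 genes.

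A second Dlg4 probe set, 1419581_at, changed in the same direction. It averaged 701 ± 49.0 at 8 weeks and 249 ± 81.2 at 1 week (SD, n = 4 and 6), a change of 1.45 ± 0.19 (limma adjusted p = 1.46e-04), and its ages did not overlap either. The change of 1419580_at minus that of 1419581_at was -0.46 (two-sided exact permutation test over arrays, p = 0.0238, adjusted p = 0.0366 over 20 pairs). That difference passed in 8 of 16 alternatives and was lost when any array but the 1-week arrays numbered 1 was left out, with adjusted p up to 0.0794. The remaining probe set, 1460261_at, was below the brightness filter and went the other way. It read 66.5, 46.9, 52.9 and 58.9 at 8 weeks, and 77.9, 55.6, 75.5, 95.5, 84.8 and 76.8 at 1 week. Fitted without the filter it changed by -0.34 (limma adjusted p = 0.0430), so the 3 Dlg4 probe sets disagree in direction, the dim one against both bright ones.

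Dlg3, the scaffold gene that is prominent in early postnatal synapses, did not pass the test. Probe set 1416918_at read 532, 499, 525 and 496 at 8 weeks. At 1 week it read 567, 564 and 579.8 in arrays labelled male and 640.5, 534 and 425 in arrays labelled female. The 8-week arrays were tightly grouped inside the 1-week range. The change was -0.09 ± 0.10 (limma adjusted p = 0.51), and it turned to 0.44 (adjusted p = 0.0116) on the deposited scale and to 0.15 with spike-in scaling, both beside the general shifts given above.

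A difference taken within an array is free of any factor that multiplies all its intensities, apart from the constant added before taking log2. The within-array log2 difference between their probe sets was 0.70 ± 0.07 at 8 weeks and -0.38 ± 0.14 at 1 week (SD, n = 4 and 6). The age changes differed by 1.08 (two-sided exact permutation p = 0.00476, the smallest that the 210 splits of 10 arrays allow, adjusted p = 0.0106), and all 4 arrays at 8 weeks were above all 6 at 1 week. The levels of different probe sets cannot be ranked against each other, so only the shift between ages is read from such a difference.

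Homer1, which encodes the adaptor that links metabotropic glutamate receptors to Shank proteins, rose modestly. Probe set 1425710_a_at read 156, 143, 129.7 and 125 at 8 weeks, and 113, 92.7, 76.5, 113, 101 and 120.0 at 1 week. The lowest 8-week array was just above the highest at 1 week. The means were 138 ± 13.8 and 103 ± 16.1 (SD, n = 4 and 6), a change of 0.36 ± 0.10 (limma adjusted p = 0.0108). Probe set 1421768_a_at averaged 102 ± 15.7 at 8 weeks and 80.2 ± 23.1 at 1 week, with overlapping ages and a change of 0.29 ± 0.14 that did not pass (adjusted p = 0.119). The dim 1425671_at read between 7.59 and 23.9 at 8 weeks and between 4.88 and 16.6 at 1 week and was not tested with the filter on. Homer1 probe sets can differ in the long and short forms they read, and the annotation used here does not separate these forms.

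Shank3, the master scaffold beneath the Dlg and Dlgap layer, passed the test only narrowly. Probe set 1419137_at read 808 and 1128 in 8-week arrays labelled male, and 1041 and 1021 in those labelled female. At 1 week it read 747, 710.5 and 865 in arrays labelled male and 912, 699 and 694 in arrays labelled female. The ages overlapped, since the lowest 8-week array was below the 2 highest at 1 week. The change was 0.36 ± 0.12 (limma adjusted p = 0.0298). It stayed past the threshold in 3 of the 10 fits that leave out 1 array, those without labelled-female replicate 1 at 1 week, labelled-male replicate 3 at 1 week or labelled-male replicate 1 at 8 weeks. The change ranged from 0.24 to 0.48 over these fits, with adjusted p up to 0.131.

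Within the scaffolds the changes were unequal. Dlg4 moved more than Homer1 by 0.63 and more than Shank3 by 0.63 (exact permutation p = 0.00476 and adjusted p = 0.0106 for each). Dlg3 moved less than both, with a difference of age changes of -0.45 to Homer1 (adjusted p = 0.0106) and of -0.45 to Shank3 (exact permutation p = 0.00952, adjusted p = 0.0190). The last did not pass without both 1-week arrays numbered 1 (adjusted p = 0.0816). For Homer1 against Shank3 no difference was detected (exact permutation p = 0.976), the within-array difference being -2.65 ± 0.22 at 8 weeks and -2.65 ± 0.13 at 1 week (SD, n = 4 and 6), which does not show that the 2 genes act alike.

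**Figure D2:**
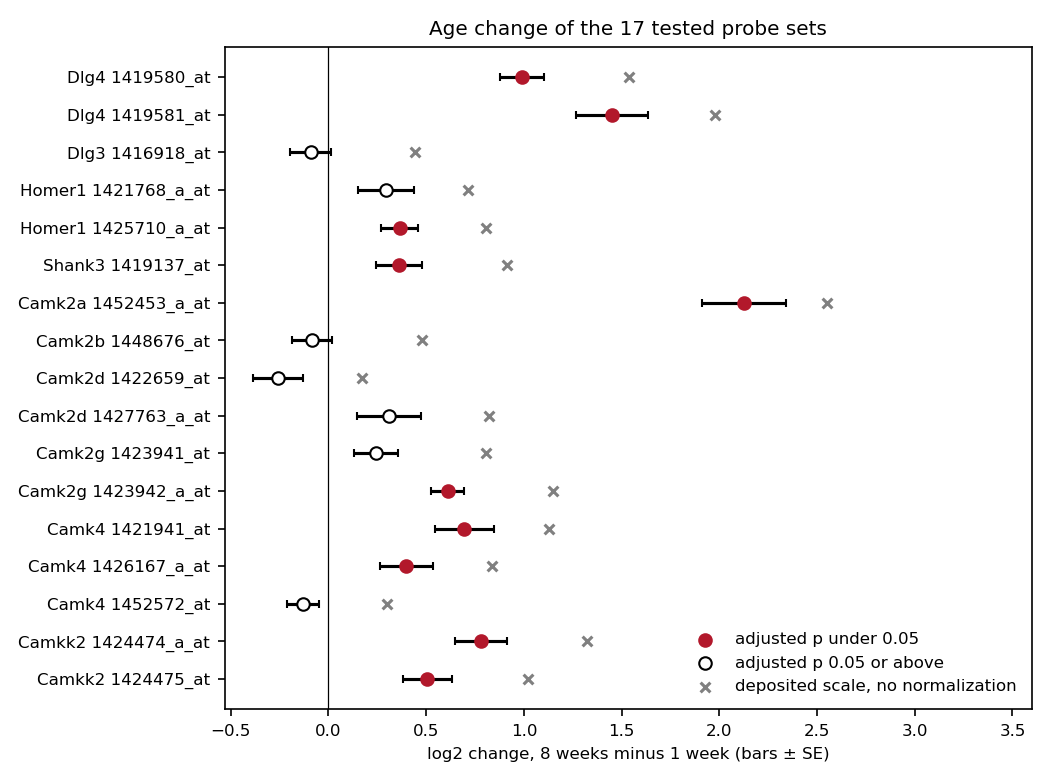
Log2 change between ages (8 weeks minus 1 week, bars ± SE) of the 17 tested probe sets. Filled points have a limma adjusted p under 0.05, open points do not, and crosses give the change on the deposited scale, where every probe set lies further to the right and Dlg3 and Camk2b move from just below 0 to 0.44 and 0.48.

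Camk2a, which encodes the alpha subunit of CaM kinase II, the form that dominates forebrain excitatory neurons, showed the largest change of the 10 genes. Probe set 1452453_a_at read 245 and 200.3 in 8-week arrays labelled male and 333 and 274 in those labelled female. At 1 week it read 98.5, 34.4 and 48.8 in arrays labelled male and 42.9, 31.7 and 14.2 in arrays labelled female. The ages were separated, with the lowest 8-week array above the highest at 1 week. The means were 263 ± 55.6 at 8 weeks and 45.1 ± 28.7 at 1 week (SD, n = 4 and 6), a change of 2.13 ± 0.21 (limma adjusted p = 3.19e-05). It was the 41st-largest change in size of the 8148 genes.

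The 1-week mean of Camk2a is below the mean intensity of the dimmest probe set tested, 73.9, so it was tested through its 8-week level, and the constant of 24 added before taking log2 makes the fold smaller than the ratio of intensities. The call held in all 27 alternative settings in which it was tested, with changes from 1.21 to 2.72. The lowest came from a fit of age alone that dropped all 5 of the 1-week arrays with sex transcripts against or beyond their label, which leaves a single array at that age, labelled-male replicate 1.

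Camk2b, the beta subunit gene, which binds actin and appears earlier in development, did not pass. Probe set 1448676_at read 926, 749.5, 909 and 970.5 at 8 weeks. At 1 week it read 1068, 941 and 879.6 in arrays labelled male and 1064, 882 and 824 in arrays labelled female. The ranges overlapped broadly. The change was -0.08 ± 0.10 (limma adjusted p = 0.537), and it turned to 0.48 (adjusted p = 0.00503) on the deposited scale, to 0.18 with spike-in scaling and to 0.0064 without both 1-week arrays numbered 1.

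Camk2d, the delta subunit gene, known best from heart and also expressed in brain, did not pass on either probe set. Probe set 1427763_a_at read 409, 345, 266 and 397 at 8 weeks, and 214, 220.2, 383, 279, 306 and 293 at 1 week. The change of 0.31 ± 0.16 missed the threshold (limma adjusted p = 0.151), with labelled-female replicate 3 the highest of the 1-week arrays. Without that array the change was 0.44 and passed (adjusted p = 0.0141), and it also passed on the deposited scale, at 0.82, and with spike-in scaling, at 0.54. Probe set 1422659_at leaned the other way, with 108 ± 15.9 at 8 weeks and 136 ± 33.4 at 1 week (SD, n = 4 and 6) and a change of -0.26 ± 0.13 (adjusted p = 0.128), which turned to 0.17 on the deposited scale. The difference between the 2 probe sets was not past the threshold (0.57, exact permutation p = 0.0810, adjusted p = 0.101).

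Camk2g, the gamma subunit gene, whose product can carry calmodulin to the nucleus, rose on its brighter probe set. Probe set 1423942_a_at read 1654, 2029, 2303 and 2027 at 8 weeks, and 1399, 1300.4, 1270.5, 1208, 1330.5 and 1270.5 at 1 week. The ages did not overlap and the 1-week arrays were close together. The means were 2003 ± 267 and 1296 ± 64.8 (SD, n = 4 and 6), a change of 0.61 ± 0.08 (limma adjusted p = 2.43e-04). Probe set 1423941_at averaged 1076 ± 178 at 8 weeks and 903 ± 124 at 1 week, with overlap, and its change of 0.24 ± 0.11 did not pass (adjusted p = 0.110). The changes of these 2 probe sets differed by 0.37 (exact permutation p = 0.0143, adjusted p = 0.0260), which was lost without labelled-female replicate 1, labelled-female replicate 2 or labelled-male replicate 2 at 8 weeks (adjusted p up to 0.0794).

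The 4 CaM kinase II genes therefore did not move alike. The within-array log2 difference of Camk2a to Camk2b was -1.68 ± 0.36 at 8 weeks and -3.89 ± 0.45 at 1 week (SD, n = 4 and 6), a difference of age changes of 2.21 (exact permutation p = 0.00476, adjusted p = 0.0106). Against Camk2d the change of Camk2a was larger by 1.82, and against Camk2g by 1.52, each with adjusted p = 0.0106. All 3 comparisons rest on a Camk2a probe set that is dim at 1 week, as described above, so their sizes depend on the constant added. In each of them every 8-week array was above every 1-week array. Camk2b moved less than Camk2g, with a difference of age changes of -0.69 (exact permutation p = 0.00476, adjusted p = 0.0106). No difference was detected between Camk2b and Camk2d (-0.39, exact permutation p = 0.119) or between Camk2d and Camk2g (-0.30, exact permutation p = 0.262), whose within-array differences had SDs of 0.28 to 0.44.

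**Figure D3:**
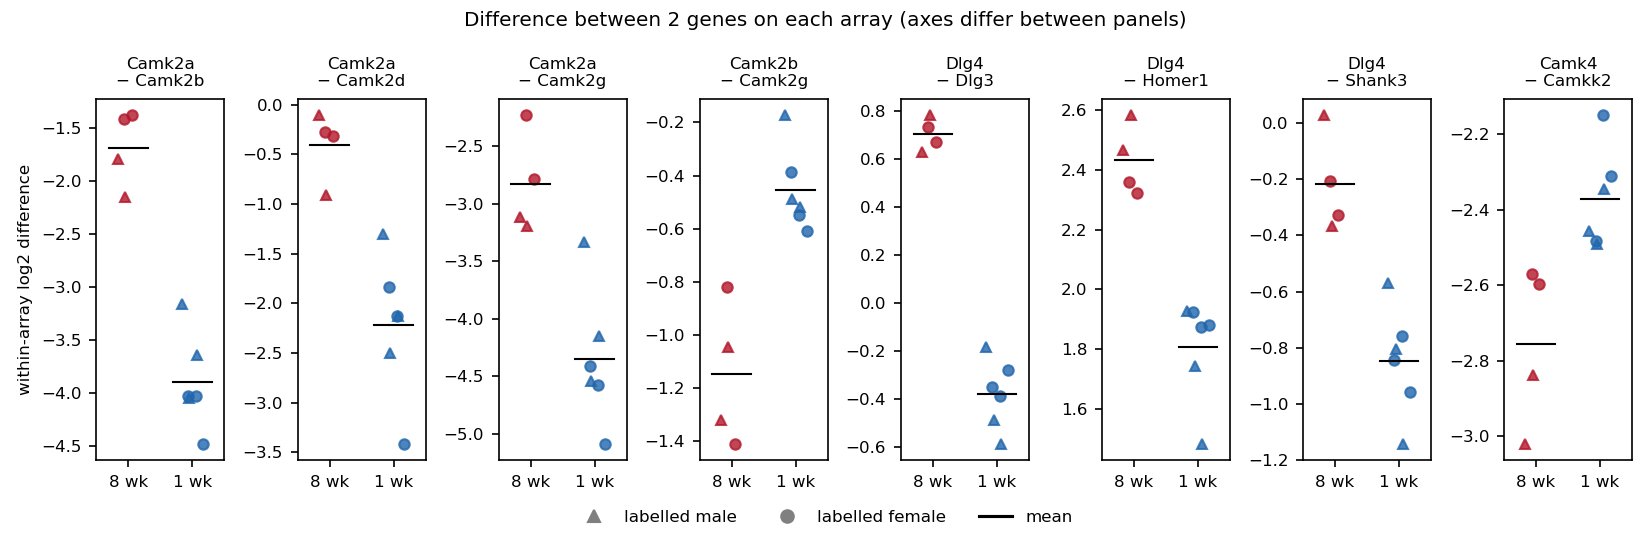
Within-array log2 difference between the brightest probe sets of 2 genes for 8 of the 20 pairs compared (axes differ between panels), with a line at the mean of each age. The shift between ages is largest for Camk2a against Camk2b, at 2.21, and only the sign and size of the shift can be read, not which gene is more abundant.

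In the cascade, Camkk2 rose in both tested probe sets. Probe set 1424474_a_at read 1025, 912, 959 and 1278 at 8 weeks. At 1 week it read 735, 566 and 644 in arrays labelled male and 690.2, 498 and 466 in arrays labelled female. The ages were separated, with means of 1044 ± 163 and 599.8 ± 108 (SD, n = 4 and 6) and a change of 0.78 ± 0.13 (limma adjusted p = 8.94e-04). Probe set 1424475_at averaged 355 ± 54.2 at 8 weeks and 243 ± 35.0 at 1 week, a change of 0.51 ± 0.13 (adjusted p = 0.00778), and here the lowest 8-week array was within the 1-week range. The dim probe set 1424476_at read 86.8, 77.0, 68.9 and 98.7 at 8 weeks and 60.7, 47.8, 35.1, 73.2, 42.4 and 39.9 at 1 week, and fitted without the filter it rose by 0.55 (adjusted p = 0.0270). All 3 probe sets of Camkk2 thus pointed to a higher level at 8 weeks.

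Camk4, the nuclear kinase that is abundant in cerebellar granule cells and in forebrain neurons, gave a less even picture. Probe set 1426167_a_at read 153, 131, 97.2 and 158 at 8 weeks, and 104, 93.6, 74.7, 114, 81.0 and 107 at 1 week. Labelled-male replicate 1 at 8 weeks fell inside the 1-week range and the other 8-week arrays did not. The means were 135 ± 27.6 and 95.8 ± 15.5 (SD, n = 4 and 6), and the change of 0.40 ± 0.14 passed narrowly (limma adjusted p = 0.0351). It stayed past the threshold in 4 of the 10 fits without 1 array, those without labelled-female replicate 1, labelled-male replicate 1 or labelled-male replicate 3 at 1 week or labelled-male replicate 1 at 8 weeks, and it ranged from 0.25 to 0.54 with adjusted p up to 0.151.

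Of the other Camk4 probe sets, 1421941_at read 198, 153, 80.5 and 168 at 8 weeks, and 68.1, 66.0, 66.0, 105, 89.8 and 87.6 at 1 week. It rose by 0.70 ± 0.15 (limma adjusted p = 0.00403), and again labelled-male replicate 1 was the 1 low array at 8 weeks. Probe set 1452572_at averaged 98.4 ± 3.04 at 8 weeks and 111 ± 17.7 at 1 week (SD, n = 4 and 6), a change of -0.13 ± 0.08 that did not pass (adjusted p = 0.220) and that turned to 0.30 on the deposited scale. It differed from 1426167_a_at by 0.53 (exact permutation p = 0.0238, adjusted p = 0.0366), which passed in 8 of 16 alternatives and was lost when any array but labelled-female replicate 1 at 1 week or labelled-male replicate 1 at 8 weeks was left out, with adjusted p up to 0.0916. Between the genes, Camk4 changed less than Camkk2, with a difference of age changes of -0.38 (exact permutation p = 0.00476, adjusted p = 0.0106), with within-array differences of -2.76 ± 0.21 at 8 weeks and -2.37 ± 0.13 at 1 week. Of the 20 pairs compared, 13 passed the threshold, and 10 to 13 did when 1 array was left out.

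The samples were also described by labelled sex, as the study's second factor. No probe set of the 10 genes was called between labelled male and labelled female, at either age or over both, and none for the interaction of age and label, where 0% of all 13576 probe sets were called by limma. Xist itself was not called, although it read 1676 and 1405 on 8-week arrays labelled female and 131 and 134 on those labelled male. The shared estimate of spread includes the 1-week arrays with opposing sex transcripts, so the absence of calls says little about these genes. At an unadjusted p under 0.05, 0 of the 17 were past the threshold over both ages, 0 at 8 weeks, 2 at 1 week and 2 for the interaction, where 3.45%, 2.54%, 8.47% and 5.59% of all probe sets were, in that order. Camk2a averaged 223 ± 31.8 and 304 ± 41.7 in arrays labelled male and female at 8 weeks (SD, n = 2 each), and 60.6 ± 33.7 and 29.6 ± 14.5 at 1 week (SD, n = 3 each), in the order male and female. Its order of levels was therefore 8-week labelled female, 8-week labelled male, 1-week labelled male and 1-week labelled female, with neighbours of the same age not called different.

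Within the labels the age change of Camk2a was 1.61 ± 0.30 in labelled males (limma adjusted p = 0.00296) and 2.64 ± 0.30 in labelled females (adjusted p = 1.91e-04), and the difference of -1.03 ± 0.43 did not pass (unadjusted p = 0.0365, adjusted p = 0.857). For Camk4 probe set 1421941_at the change was 0.27 in labelled males and 1.13 in labelled females (interaction unadjusted p = 0.0178, adjusted p = 0.857). Dlg4 changed by 0.97 in labelled males and 1.01 in labelled females, and Camkk2 by 0.76 and 0.80 in the same order. In labelled males 6 of the 17 probe sets and 4 of the 10 genes were called higher and 0 lower, where 15.5% of all probe sets were called higher and 16.6% lower. In labelled females 8 probe sets and 5 genes were called higher and 0 lower, where 14.4% and 16.2% of all probe sets were. Within a label no share over all genes was counted, so the gene counts have no background of their own. The sex of the animals behind the 1-week labels was not settled, so these are comparisons of labels.

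Markers of the cell types in the samples differed between arrays beside these genes, and their calls are to be read against the 21.9% of all genes called higher and the 24% called lower. The summed intensity of 12 pan-neuronal genes ran from 18849 to 20169 at 8 weeks and from 19280.5 to 20720.2 at 1 week, with 4 genes higher, 4 lower and 4 not passing. The sum of 8 measured genes of a list of 14 forebrain excitatory markers ran from 5274 to 5759 at 8 weeks and from 2996 to 6135 at 1 week, with 2 higher and 3 lower. The sum of 14 of 16 cerebellar markers ran from 5818 to 21409 at 8 weeks and from 2959 to 9204 at 1 week, with 6 higher and 1 lower. None of these markers was at 0 on every 8-week array.

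Single arrays stood out in the same lists. At 1 week, labelled-female replicate 3 had the lowest Dlg4, Dlg3, Homer1, Shank3, Camk2a, Camk2b, Camk4 and Camkk2 and the highest Camk2d, with the lowest forebrain sum, 2996, and the highest cerebellar sum, 9204. In the vascular and meningeal list described below, its sum was also the highest at that age, 10496 against 3142 to 5677. Without that array Camk2d passed, and Shank3 and Camk4 did not. Labelled-male replicate 1 had the highest Camk2a, 98.5, and the lowest cerebellar sum, 2959, at that age. At 8 weeks, labelled-male replicate 1 had the lowest Camk4, 97.2, Shank3, 808, and Camk2d, 266, and the lowest cerebellar sum, 5818, and labelled-male replicate 2 had the lowest Camk2a, 200.3, the highest Camkk2, 1278, and the highest cerebellar sum, 21409. The part of these markers in the age changes was not tested.

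Non-neuronal lists also moved with age. The sums over 8 of 9 oligodendrocyte markers ran from 14115 to 18369.9 at 8 weeks and from 2391 to 11499 at 1 week, with 5 higher and 0 lower of 7 tested. Astrocyte sums ran from 14047 to 15271 and from 6913 to 9841 in the same order of ages, with 4 higher and 1 lower of 9. Microglial and blood markers were higher in 6 of 6 tested, with sums of 2952 to 3985 against 2201 to 2615, whereas vascular and meningeal markers were lower in 5 of 10, with sums of 1931 to 2404 against 3142 to 10496. Striatal sums ran from 3107 to 4432 and from 1922 to 3052, with 4 higher and 1 lower of 7. Muscle sums were low, 431 to 553 and 396 to 948, with none of 4 called, and pituitary and choroid plexus sums were 9313 to 17498 and 5291 to 8861, with 2 higher of 6. Their part in the values of the scaffold and kinase genes was not tested.

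**Figure D4:**
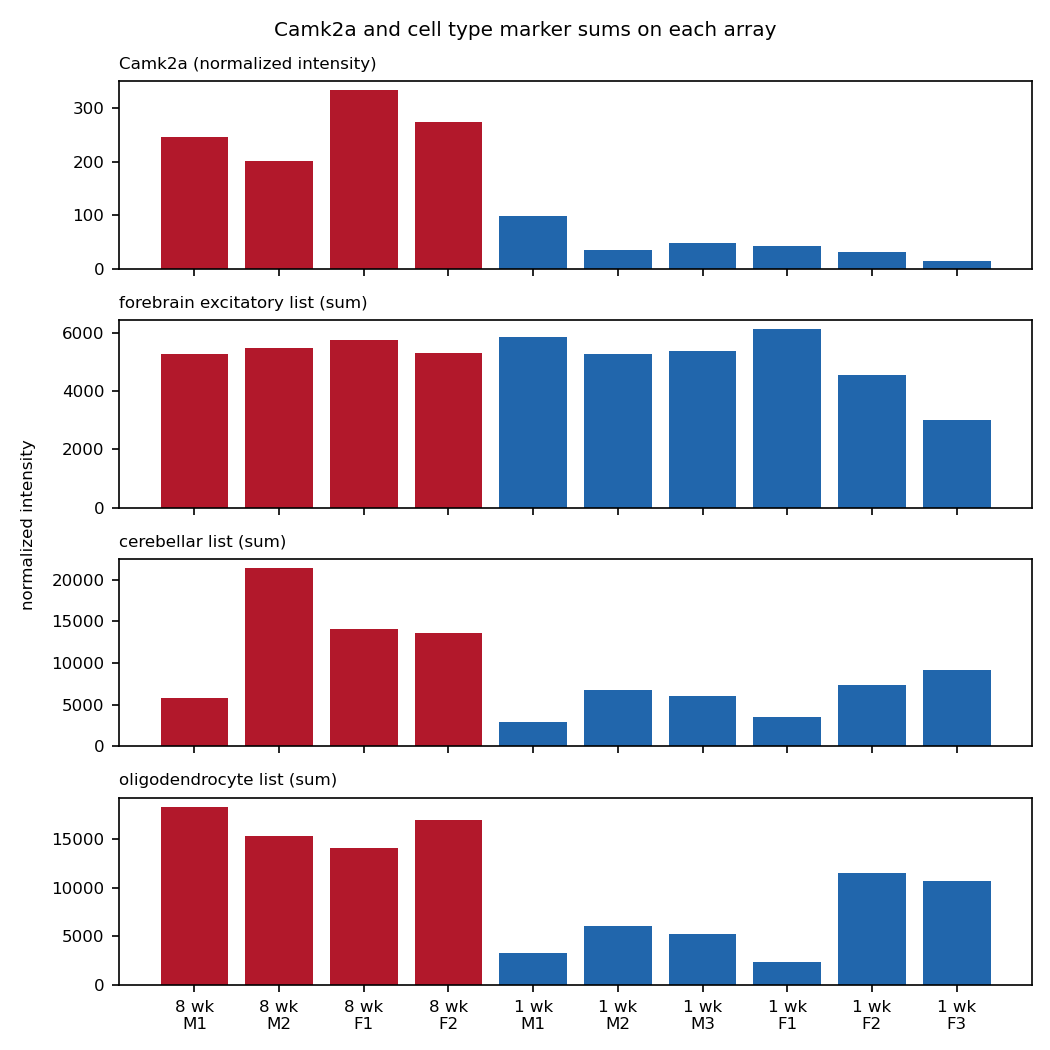
Bars (axes from 0) give the normalized intensity of Camk2a and the summed normalized intensity of the forebrain excitatory, cerebellar and oligodendrocyte marker lists on each array, 8 weeks on the left and 1 week on the right, M and F being the sex labels with the replicate number. Camk2a is highest on the 4 arrays at 8 weeks, while the cerebellar sum varies from 5818 to 21409 among those same arrays.

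The partners of these proteins were described from lists of related genes, each read against the 21.9% of genes called higher and 24% called lower. Of 22 tested scaffold partners (42 listed, 24 with a probe set), 7 rose, 9 fell and 6 did not pass, with a median change of -0.09. Kalrn, a guanine nucleotide exchange factor of dendritic spines, averaged 1429 ± 292 at 8 weeks and 202 ± 54.5 at 1 week (SD, n = 4 and 6), a change of 2.70 ± 0.17 (limma adjusted p = 1.89e-06). Dlg1, the paralogue of Dlg4 that encodes SAP97, rose by 0.94 ± 0.10 (adjusted p = 4.32e-05), with means of 1133 ± 33.4 and 581 ± 72.0. Gda, which encodes the PSD95-binding guanine deaminase cypin, rose by 0.86 ± 0.20, and Iqsec1, an exchange factor for Arf GTPases, by 0.80 ± 0.09.

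Among the scaffold partners that fell, Dbn1, the actin-binding drebrin gene of immature and mature spines, averaged 698 ± 88.0 at 8 weeks and 1670.1 ± 188 at 1 week (SD, n = 4 and 6). It fell by 1.23 ± 0.10 on the log2 scale (limma adjusted p = 8.73e-06). Lin7c, a small PDZ adaptor, changed by -0.72 ± 0.10, Homer2, a paralogue of Homer1, by -0.61 ± 0.12, and Nlgn2, the neuroligin of inhibitory synapses, by -0.56 ± 0.09. The Dlg paralogues Dlg4 and Dlg1 thus rose while Dlg2 (-0.04) and Dlg3 did not pass. On the deposited scale Dlg3 passed as higher, and the change of Homer2 was -0.07 there and did not pass.

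Of 10 tested glutamate receptor genes (16 listed, 12 with a probe set), 6 rose, 1 fell and 3 did not pass, with a median change of 0.54. Grin2a and Grin2d were too dim to be tested, so these counts leave them out. Grin2d read 30.4 to 49.4 at 8 weeks and 77.0 to 124 at 1 week, without overlap. Grin2a read 50.5 to 77.05 and 39.3 to 52.1 in the same order of ages, with overlap. Grin2c, the NMDA receptor subunit of cerebellar granule cells, averaged 497 ± 282 at 8 weeks and 58.0 ± 16.6 at 1 week (SD, n = 4 and 6), a change of 2.55 ± 0.30 (limma adjusted p = 9.18e-05), beside the cerebellar marker sums given above. Its 1-week mean, like that of Gda, is below 73.9, the mean of the dimmest probe set tested, so these genes too were tested through their 8-week level. Gria3 and Gria4, AMPA receptor subunits, rose by 0.96 ± 0.10 and 0.66 ± 0.11, and Cacng2, which encodes the AMPA receptor auxiliary protein stargazin, by 0.87 ± 0.17. Cnih2, another AMPA receptor auxiliary gene, fell by 0.91 ± 0.12 on the log2 scale (adjusted p = 1.42e-04).

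Of 21 tested genes of calmodulin and CaM kinase signalling (36 listed, 23 with a probe set), 9 rose, 5 fell and 7 did not pass, with a median change of 0.22. Gap43, the growth cone protein that binds calmodulin at low calcium, averaged 846 ± 92.1 at 8 weeks and 3225 ± 299 at 1 week (SD, n = 4 and 6) and fell by 1.90 ± 0.09 on the log2 scale (limma adjusted p = 3.61e-07). Nrgn, which encodes the postsynaptic calmodulin-binding protein neurogranin, changed by 0.22 and did not pass (adjusted p = 0.419). Rasgrf1 and Tiam1, calcium-responsive exchange factors for Ras and Rac, rose by 1.45 ± 0.13 and 1.09 ± 0.17. Ppp1r1b, the striatal phosphatase inhibitor DARPP32, rose by 1.11 ± 0.30, beside the striatal marker sums given above, which include Ppp1r1b itself. Pde1b, a calmodulin-dependent phosphodiesterase, rose by 0.87 ± 0.12.

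Falls in the same list included Ppp1r1a, protein phosphatase inhibitor 1, with a change of -1.17 ± 0.11 (limma adjusted p = 2.42e-05). Pnck, which encodes a CaM kinase I beta, changed by -0.50 ± 0.10 and Akap12, a kinase-anchoring protein, by -0.46 ± 0.10. On the deposited scale, beside the general shift of 0.47, both turned positive, to 0.049 for Pnck and 0.073 for Akap12.

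Calcineurin is the calcium and calmodulin-dependent phosphatase that opposes CaM kinase II at many synapses. Of 10 tested genes (15 listed, 12 with a probe set), 5 rose, 2 fell and 3 did not pass, with a median change of 0.13. The 2 tested catalytic subunit genes moved in opposite directions, and Ppp3cc, the third, was too dim to be tested. Ppp3ca averaged 3067 ± 212 at 8 weeks and 1935 ± 325 at 1 week (SD, n = 4 and 6), a change of 0.67 ± 0.13 (limma adjusted p = 0.00161), and Ppp3cb averaged 827 ± 49.7 at 8 weeks and 1366 ± 187 at 1 week, a change of -0.70 ± 0.10 (adjusted p = 3.08e-04). Ppp3r1, the regulatory subunit gene, rose by 0.64 ± 0.08, Rcan2, a calcineurin regulator, by 1.21 ± 0.08, and Nfatc2, a transcription factor that calcineurin activates, by 0.47 ± 0.09.

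Of 13 tested genes downstream of Camk4 and Camkk2 (24 listed, 17 with a probe set), 4 rose, 3 fell and 6 did not pass, with a median change of 0.19. Hdac5, a histone deacetylase that CaM kinases export from the nucleus, rose by 0.52 ± 0.08 (limma adjusted p = 3.41e-04), and Mef2d, a transcription factor that it represses, by 0.47 ± 0.10. The other Mef2 genes tested did not rise with it. Mef2c changed by -0.54 ± 0.18 (limma adjusted p = 0.0348) with overlapping ages, and Mef2a by 0.22, which did not pass. Crem, a CREB-family gene, averaged 92.6 ± 9.17 at 8 weeks and 71.6 ± 6.99 at 1 week (SD, n = 4 and 6), a change of 0.29 ± 0.09 (adjusted p = 0.0221). Its 1-week mean is also below 73.9, and it passed in 19 of 26 alternatives and was lost without labelled-male replicate 1, labelled-female replicate 1 or labelled-female replicate 2 at 8 weeks (adjusted p up to 0.0942). Creb1 itself was too dim to be tested. Prkag2, a gamma subunit of AMP-activated kinase, changed by -0.52 ± 0.08, and Akt1, a survival kinase that Camkk2 can phosphorylate, by -0.39 ± 0.09, which turned to 0.15 on the deposited scale. Over the 5 lists together, 31 genes rose and 20 fell.

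**Figure D5:**
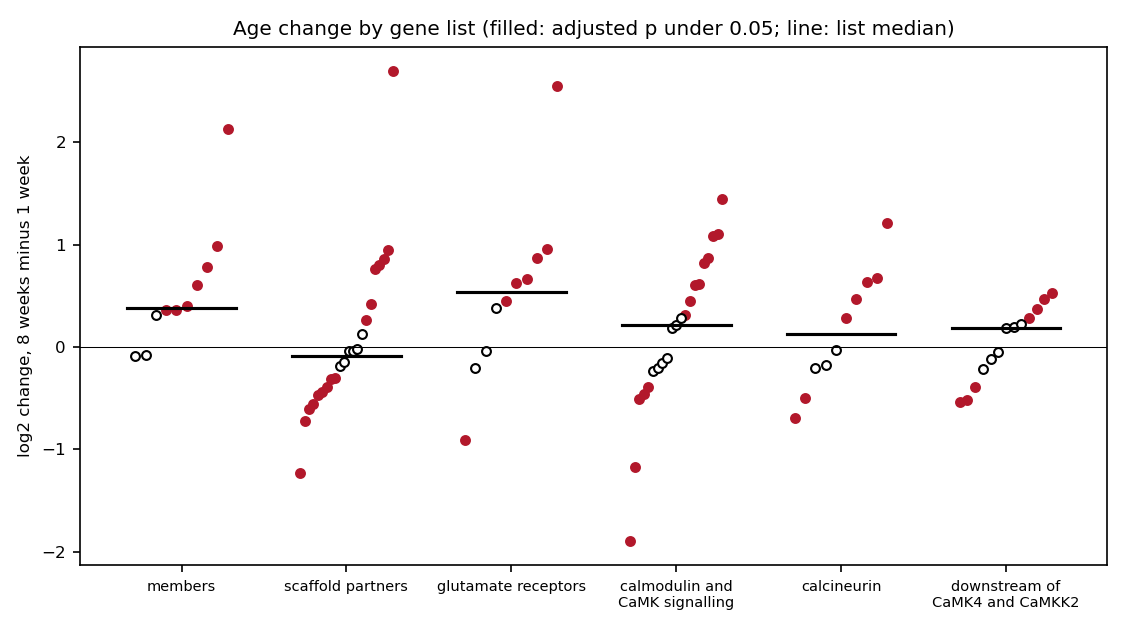
Log2 change between ages (8 weeks minus 1 week) of every tested gene of the 10 scaffold and kinase genes, named members, and of the 5 related lists, sorted within each list, with a line at the list median. Filled points have a limma adjusted p under 0.05. The members have no filled point below 0, and each related list has filled points on both sides.

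Genes with the profile most like a member were chosen by the root mean square difference of log2 values over the 10 arrays, each gene centred on its own mean, for the 4 members that rose by at least 0.5. For Dlg4 these were Cdk5r2, Cyp46a1 and Map2k1, at 0.0917, 0.0966 and 0.123. Cdk5r2 averaged 1083 ± 31.1 at 8 weeks and 538 ± 86.1 at 1 week (SD, n = 4 and 6), and Cyp46a1, the neuronal cholesterol hydroxylase, 1239.9 ± 59.8 and 639 ± 50.3. For Camk2g they were Bcap29, Atp6v1b2 and Zfp106, at 0.0797, 0.0881 and 0.0914, and for Camkk2 they were Usp2, Nab2 and Cystm1, at 0.106, 0.118 and 0.140. Camk2a had no profile as close. Its nearest were Bhlhe40, Chn1 and Arpp19, at 0.339, 0.340 and 0.358, and Chn1, a Rac-inactivating protein gene of neurons, averaged 2064 ± 296 at 8 weeks and 642 ± 111 at 1 week. The root mean square difference was not scaled to the size of a change. Camk2a changed most of the 10 genes and was dim at 1 week, so its larger differences do not show an unusual pattern. The points share arrays and normalization, so these values are descriptions with no test.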

How the data were processed

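Total RNA of 10 brain samples was measured on 1 array each. The authors deposited 1 intensity per probe set and array on a linear scale; the software, background correction and scaling behind these intensities are not given in the sources used here. Of 22690 probe sets in the deposited table, 64 array controls were left out. Arrays were quantile-normalized, 24 (the 20th percentile of the deposited values) was added, and log2 was taken. Probe sets under the 40th percentile of mean log2 were not tested. The limma package (3.58.1, under R 4.3.3) fitted a mean for each combination of age and sex label with moderated variances, and two-sided p-values were adjusted by Benjamini-Hochberg over 13576 probe sets, with a threshold of 0.05. Differences between 2 probe sets were tested with an exact permutation test over the arrays, adjusted over 20 pairs. Figures were drawn in Python 3.11.15 with matplotlib 3.10.9.

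Symbols came from the platform's annotation (20380 probe sets with 1 symbol, 691 with several, 1555 with none), and the brightest single-symbol probe set stood for a gene. Named genes were the members with every probe set, from each of the 5 related lists the 4 largest rises and 4 largest falls among called genes whose ages do not overlap, and the 3 most similar profiles of members changed by at least 0.5. Nrgn, Dlg2, Creb1, Ppp3cc, Mef2a, Mef2c, Grin2a, Grin2d, Xist and Eif2s3y were named outside that rule, after their values were seen. The members, lists and marker lists were chosen with earlier results of these data known. The number of arrays limits the precision. On simulated data of 22626 probe sets, the age test recovered 64.2%, 88.1% and 87.9% of changes of 0.5, 1 and 2 on the log2 scale, with 7 false calls among 13576 tested. The simulation changed only 67, 67 and 66 probe sets of these sizes, whereas 6246 were called for age in the data. Its rates therefore need not hold for these data. Alternatives covered the constant, scaling, filter, omission of each array, array weights, a replicate block, a variance trend with intensity, age alone, single labels and the probe set rule.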

Additional observations from a re-analysis of the deposited data

Results flagged for a closer look

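In 8 of 120 age groups over 60 probe sets, the highest or lowest array was far from the others of its age, where chance gives about 1 in 20. None of these probe sets belongs to the 10 scaffold and kinase genes. At 8 weeks, Cacng2 read 546 on labelled-male replicate 2 (the others 282 to 306), and Cnih2 read 695 on the same array (the others 811 to 818). Gap43 read 984 on labelled-female replicate 1 (the others 794 to 809.7), and Hdac5 read 982 on labelled-female replicate 2 (the others 855 to 874). At 1 week, Iqsec1 read 406 on labelled-male replicate 1 (the others 466 to 495). Gria3 read 169.9 and Pde1b 402 on labelled-female replicate 2 (the others 202 to 215 and 503 to 555). Pnck read 872 on labelled-female replicate 1 (the others 736 to 769.5).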

How the results depend on the processing

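Dlg4 and Camk2g kept direction and call under all 28 alternatives, and Camk2a under the 27 that tested it. Of these, 1, age alone without both 1-week arrays numbered 1, was chosen after seeing the data. Causes were not tested beyond what each alternative leaves out. Precision is limited by 4 and 6 arrays, and dim probe sets by their signal over background.

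Dlg3 reversed to 0.44 on the deposited scale, 0.15 with spike-in scaling and 0.061 with age alone without the 4 arrays whose sex markers oppose their label. Camk2b reversed to 0.48, 0.18 and, without both 1-week arrays numbered 1, 0.0064. Camk2d passed at 0.82 on the deposited scale and 0.54 with spike-in scaling, and leaving out 1 array gave 0.18 to 0.44. Without the 4 arrays Camk4 was 0.42 and did not pass. Without these and the array carrying both sex markers, which leaves 1 array at 1 week, taken to vary like the others, Camk4 at 0.18, Camkk2 at 0.48, Homer1 at 0.25 and Shank3 at 0.40 did not pass. With labelled males alone, Camk4 at 0.26, Homer1 at 0.16 and Shank3 at 0.30 did not pass, nor Shank3 at 0.42 with labelled females alone. Without a filter Camk4 at 0.40 and Shank3 at 0.36 did not pass. More probe sets were tested there, and the SE rose from 0.136 to 0.141 for Camk4 and from 0.119 to 0.122 for Shank3. Leaving out 1 array gave 0.25 to 0.54 for Camk4 and 0.24 to 0.48 for Shank3.

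The member genes called higher numbered 7, and 3 without the 5 arrays, 4 with the filter at the 60th percentile and 4 with labelled males alone; 7 were called without both 1-week arrays numbered 1, and none was called lower in any setting. Related genes called higher numbered 18 without the 5 arrays, 50 on the deposited scale and 20 with labelled males alone, and those called lower 13 without the 4 arrays, 13 without the 5, 4 on the deposited scale, 12 with labelled females alone and 6 with spike-in scaling. Probe sets called for age numbered 4065 without the 4 arrays (1992 higher, 2073 lower), 3745 without the 5 (1874 and 1871), 3701 with labelled females alone (1761 and 1940) and 3831 with labelled males alone (1849 and 1982), against 6246. The deposited scale gave 8673 higher and 629 lower, and spike-in scaling 4304 higher and 1207 lower, against 2993 and 3253. The filter at the 60th percentile left Camk2a, Homer1 and Camk4 untested, so the fall from 7 to 4 member genes there was no loss of a call. The 4 called members still tested with that filter, Dlg4, Shank3, Camk2g and Camkk2, kept their calls. When 1 array was left out, 5 to 7 member genes were called higher.

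Other reversals on the deposited scale were Akap12 at 0.073, Akt1 at 0.15, Pnck at 0.049, Camk2d 1422659_at at 0.17 and Camk4 1452572_at at 0.30. The last was 0.044 with labelled females alone and 0.050 with spike-in scaling, and Camk2d 1422659_at was 0.16 without the 5 arrays. Homer1 1421768_a_at was -0.16 without the 5 arrays and -0.018 with labelled males alone. The difference of Homer1 to Shank3 was -0.11 on the deposited scale, -0.035 with median scaling, -0.063 with a constant of 64, -0.066 with spike-in scaling and -0.068 to 0.10 without 1 array. Pair tests were not run with single labels or without the 4 or 5 arrays, where too few arrays are left to pass.

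Whether replicate numbers pair the samples was not settled. After group means were subtracted, same-numbered arrays of both labels correlated at 0.19, 0.098 and 0.099 at 1 week, each array best with its own number. Arrays of unlike number correlated from -0.16 to 0.082 at that age. At 8 weeks same-numbered arrays correlated at -0.0040. With 2 arrays in each group there, all pairs have the same size of correlation, which decides nothing. With the replicate number as a block, 2847 probe sets were higher and 3054 lower, and Shank3 at 0.37 (adjusted p = 0.0681) and Camk4 at 0.37 (adjusted p = 0.0998) did not pass.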
